A study of Homo sapiens with 8 samples.

Results

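The mRNAs of 8 cholesterol synthesis enzymes, HMGCS1, IDI1, FDPS, FDFT1, SQLE, LSS, CYP51A1 and DHCR7, were followed through HT29 cells sorted for cyclin B1 after treatment with selumetinib, an inhibitor of MEK, the kinase that activates ERK. They were taken by name from the deposited table, in which each of the 8 had 1 of the 38148 gene rows. HT29 is a colorectal cancer cell line with an activating BRAF mutation. Cultures were untreated or given 1 μM selumetinib for 24 h. Glyoxal-fixed cells were then labelled with an antibody to cyclin B1, the CCNB1 protein that builds up in G2, and sorted by flow cytometry into cells without it (CCNB1-negative) and cells with it (CCNB1-positive). Poly(A) RNA of both fractions was sequenced for each treatment, which makes 4 groups of 2 libraries. All groups are 1 cell line and carry its alleles, and all were fixed, stained and sorted, so none is an unsorted control. Because nothing in the labels says that the 2 libraries of a group came from separate cultures, p-values measure only the spread between these libraries, which may be technical.

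Cholesterol is built from acetyl-CoA. HMGCS1 acts on the way to mevalonate, IDI1 and FDPS turn its activated product into farnesyl diphosphate, FDFT1 commits that to squalene, SQLE and LSS close the ring to give lanosterol, and CYP51A1 and DHCR7 act between lanosterol and cholesterol. These genes are classical targets of SREBP2, a membrane-bound transcription factor that SCAP carries out of the endoplasmic reticulum when sterol is low and that INSIG proteins hold back when sterol is high. Dividing cells need sterol for new membrane, and the isoprenoid intermediates of the pathway also modify Ras and other small GTPases.

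RefSeq promoter windows (250 bases before the gene start to 50 after it, GRCh38.p14) were at hand for 6 of the 8 genes: HMGCS1, IDI1, FDPS, LSS, CYP51A1 and DHCR7. The windows of 4 genes are shown because results below turn on these genes: under the authors' scaling CYP51A1 and DHCR7 were called lower with selumetinib in both fractions, and HMGCS1 and FDPS in CCNB1-negative cells, with a CCNB1-positive response that did not pass and that depended on the scaling. Each is written 5′ to 3′ on the strand of its gene, and capitals mark CCAAT or its reverse complement ATTGG, the CCAAT box. HMGCS1 is from chr5:43313363-43313662 (minus strand), FDPS from chr1:155308616-155308915 (plus strand), CYP51A1 from chr7:92134428-92134727 (minus strand) and DHCR7 from chr11:71448344-71448643 (minus strand).
HMGCS1: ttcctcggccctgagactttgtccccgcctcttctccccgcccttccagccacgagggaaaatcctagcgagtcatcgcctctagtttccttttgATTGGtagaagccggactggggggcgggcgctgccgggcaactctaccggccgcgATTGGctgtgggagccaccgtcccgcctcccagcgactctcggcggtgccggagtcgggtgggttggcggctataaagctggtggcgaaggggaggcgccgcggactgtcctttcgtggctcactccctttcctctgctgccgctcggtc
FDPS: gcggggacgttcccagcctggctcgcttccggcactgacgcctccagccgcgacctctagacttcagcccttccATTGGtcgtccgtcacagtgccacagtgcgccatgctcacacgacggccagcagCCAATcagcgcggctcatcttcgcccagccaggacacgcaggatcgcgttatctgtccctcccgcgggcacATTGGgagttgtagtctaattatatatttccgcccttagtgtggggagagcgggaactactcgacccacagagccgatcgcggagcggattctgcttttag
CYP51A1: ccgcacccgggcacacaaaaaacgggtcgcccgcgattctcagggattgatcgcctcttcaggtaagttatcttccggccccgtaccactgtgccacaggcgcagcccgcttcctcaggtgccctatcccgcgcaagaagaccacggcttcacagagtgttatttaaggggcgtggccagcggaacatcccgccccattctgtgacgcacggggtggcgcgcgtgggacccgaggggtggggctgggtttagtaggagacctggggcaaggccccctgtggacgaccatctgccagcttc
DHCR7: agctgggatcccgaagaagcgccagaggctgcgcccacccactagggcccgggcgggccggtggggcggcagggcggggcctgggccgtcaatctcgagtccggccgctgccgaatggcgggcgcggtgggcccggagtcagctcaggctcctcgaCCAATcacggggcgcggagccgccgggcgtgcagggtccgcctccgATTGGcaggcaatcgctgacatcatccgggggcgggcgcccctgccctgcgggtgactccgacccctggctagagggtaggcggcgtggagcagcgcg

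CCAAT boxes occurred in 4 of the 6 windows, with 2 in HMGCS1, 3 in FDPS, 1 in LSS and 2 in DHCR7, and in 35.7% of 27305 promoter windows of the same length. The letters were not found on either strand in the windows of CYP51A1 and IDI1. GC boxes, written GGGCGG and also read on both strands, were in 6 of 6 windows and in 44.6% of all. A form of the sterol response element, CACNCCAC, was in 0 of 6 and in 5.7% of all, which says only that these letters are not in these windows. RefSeq places the start of DHCR7 4475 bases inside the gene as the deposited table draws it, while the window of IDI1 lies outside its deposited span. Of the genes lower in both fractions, DHCR7 thus held CCAAT boxes and CYP51A1 did not, and SQLE had no window here.

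The labels contradict each other, and every direction below depends on how they are read. In all 8 libraries the short description and the title disagree on both treatment and fraction, each giving the reverse of the other, and the growth-media field follows the titles. Conditions here follow the descriptions, which the table uses to name its columns. Were the titles right, each response below would belong to the other fraction and have the opposite sign, the fraction differences would trade places between treatments with signs changed, and the difference between responses would stay as it is. The labels also give RPMI-1640 as the medium where the methods of the study give McCoy's 5A for HT29.

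Reads on genes ranged from 12696860 to 23916160 per library, and both selumetinib-treated CCNB1-negative libraries were among the 3 shallowest. The least covered member, CYP51A1, still had 185 reads in its lowest library. Epithelial mRNAs were abundant as a sum. The 10 colon epithelium genes were all tested and summed to at least 5421 RPM (reads scaled to the library total) in every library. KRT8 and KRT18 held most of that sum, while CDX1 had 15 to 43 reads per library and CDX2 40 to 136. The 10 markers of blood, vessel, stroma, liver and glia summed to at most 6.61 RPM. Of these 1, the collagen gene COL1A1, passed the filter on low values and 0 were without a read in every library. The epithelial sum was itself lower with the drug, at 10956 to 12081 RPM in untreated and 5421 to 7595 in treated CCNB1-negative libraries and at 10783 to 10976 and 6957 to 9166 in CCNB1-positive ones. Of the 10 genes 4 fell and 2 rose in CCNB1-negative cells, where 35.8% of all genes fell and 38.2% rose. In CCNB1-positive cells 2 fell and 3 rose, where the shares were 27.3% and 38.0%. KRT8 and KRT18 had lower means with the drug in both fractions, and CDH1 and VIL1 higher ones. The part of these changes in the members' fall was not tested. CCNB1 mRNA followed the sort under the descriptions, with differences between the fractions of 2.09 (log2) in untreated and 5.08 in treated cells. Of 13 mRNAs known as ERK output, 12 fell with selumetinib in the negative fraction and 11 in the positive one. The shares of all genes that fell were 35.8% and 27.3%. DUSP6 fell by 1.75 and 1.06 on the log2 scale. Under the titles CCNB1 and 10 of 10 genes of G2 and mitosis would be lower in CCNB1-positive cells in both treatments. Most of the ERK output mRNAs would then rise with the MEK inhibitor. EGR1, an early growth response gene of the same list, rose by 1.17 (adjusted p = 0.00032) and 1.58 (adjusted p = 4e-05). In bulk libraries like these, fewer cells with a transcript and less of it per cell cannot be told apart.

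In CCNB1-negative cells all 8 cholesterol synthesis mRNAs fell with selumetinib. Their summed level went from 1124 and 1285 RPM in the untreated libraries to between 482 and 510 RPM in the treated ones. SQLE fell most, to 13.6% of its untreated level, followed by DHCR7 (23.7%), CYP51A1 (24.7%) and IDI1 (33.0%). FDPS and HMGCS1 stood at 51.5% and 54.7%, and LSS and FDFT1 changed least, to 69.7% and 77.9%. Across the genome 35.8% of the 14219 genes tested were lower and 38.2% higher at an adjusted p under 0.05 in this comparison, so a called change was common. The members' median log2 fold change was -1.28 against 0.05 for all genes, and 14.8% of genes lay below it.

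**Figure D1:**
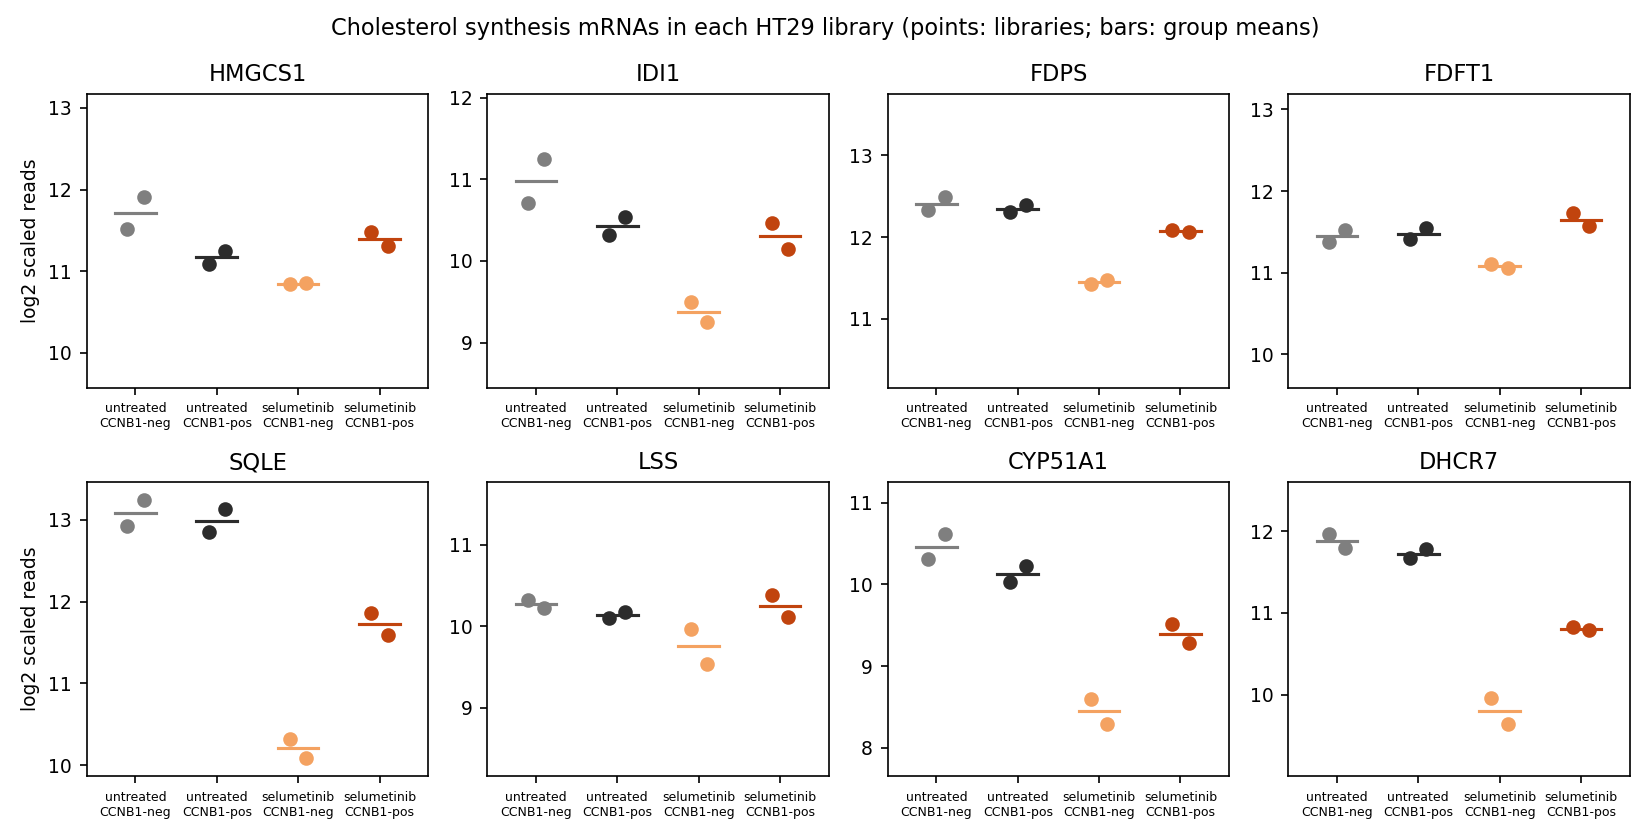
Deposited values (log2 of reads scaled to the largest library; every vertical axis spans the same number of log2 units) of the 8 cholesterol synthesis mRNAs in each of the 8 libraries. Points are libraries and bars are group means; the selumetinib-treated CCNB1-negative libraries are the lowest pair in every panel, and SQLE drops furthest.

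The mevalonate end of the pathway was read first. HMGCS1 (ENSG00000112972, chromosome 5, 43287470 to 43313512, minus strand), the cytosolic synthase that makes HMG-CoA, had log2 values of 11.52 and 11.91 in the untreated and 10.84 and 10.86 in the treated CCNB1-negative libraries. The groups did not overlap, and the change was -0.87 (SE 0.16, limma, adjusted p = 0.0002). For IDI1, the isomerase that supplies the allylic building block, the values were 10.71 and 11.25 untreated against 9.50 and 9.25 treated. That is a change of -1.60 (SE 0.19, adjusted p = 4.3e-06), although the untreated replicates of this gene were 0.53 apart, the widest replicate gap of any member. FDPS, the synthase of farnesyl diphosphate, measured 12.33 and 12.48 untreated and 11.43 and 11.47 treated, a change of -0.96 (SE 0.14, adjusted p = 2.8e-05). GENCODE release 44 lists 8 pseudogenes of FDPS and 3 each of IDI1 and CYP51A1, and 0 of these are rows of the table, so reads from them cannot be told apart from those of the parent genes.

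At the squalene branch the members parted. FDFT1 (chromosome 8, 11795573 to 11839395), squalene synthase, had 11.37 and 11.52 untreated against 11.11 and 11.06 treated, a change of -0.36 (SE 0.14, adjusted p = 0.033). SQLE (chromosome 8, 124998497 to 125022283), the squalene epoxidase and a control point of the pathway, had 12.92 and 13.24 untreated against 10.32 and 10.09 treated. Its fall of 2.88 on the log2 scale (SE 0.17, adjusted p = 9.1e-09) left the treated pair far below every other group. LSS, lanosterol synthase, had 10.32 and 10.23 untreated and 9.96 and 9.54 treated, a change of -0.52 (SE 0.17, adjusted p = 0.012). The calls of FDFT1 and LSS were the weakest of the 8: without the second treated CCNB1-negative library their adjusted p-values were 0.074 and 0.12, and with quantile normalization that of FDFT1 was 0.35. LSS also did not pass without untreated CCNB1-negative replicate 1 (adjusted p = 0.063). FDFT1 also did not pass without untreated CCNB1-negative replicate 2 (adjusted p = 0.19), without either untreated CCNB1-positive library (0.055 each) or in a fit of the CCNB1-negative libraries alone (0.1).

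In the steps after lanosterol, the losses were again large. CYP51A1, the demethylase that acts on lanosterol, had values of 10.31 and 10.62 untreated and 8.60 and 8.29 treated, a change of -2.02 (SE 0.17, adjusted p = 2e-07). A read-through gene on the same strand, AC000120.2 (ENSG00000285772), covers CYP51A1 and had between 193 and 1250 reads where CYP51A1 had between 185 and 1246, so the table counts largely the same reads in both rows. DHCR7, the reductase of the last step, had 11.97 and 11.79 untreated and 9.96 and 9.64 treated, which gives -2.08 (SE 0.15, adjusted p = 4.8e-08). An antisense transcript of DHCR7, ENSG00000254682, had 87 to 301 reads in the 8 libraries, against 470 for DHCR7 in its lowest one, and whether reads were assigned by strand is not stated for this table. The other antisense neighbours of members that are in the table had at most 80 reads.

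In CCNB1-positive cells 3 of the 8, SQLE, CYP51A1 and DHCR7, fell with the same drug and 5 did not pass the test, where 27.3% of all genes were lower and 38.0% higher. In limma 0 members rose, with 0 at an unadjusted p under 0.05 in that direction and 0 by limma-voom. SQLE went from 12.85 and 13.13 to 11.87 and 11.59, a change of -1.26 (SE 0.17, adjusted p = 2.7e-05). It kept 41.7% of its untreated level. DHCR7 went from 11.67 and 11.78 to 10.82 and 10.79, a change of -0.92 (SE 0.15, adjusted p = 0.00013), and CYP51A1 from 10.04 and 10.23 to 9.51 and 9.29, a change of -0.73 (SE 0.17, adjusted p = 0.0022). These 3 stood at 41.7 to 60.2% of their untreated levels, compared with 13.6 to 24.7% in CCNB1-negative cells.

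The other 5 members did not pass the test in CCNB1-positive cells. HMGCS1 had 11.09 and 11.25 untreated and 11.48 and 11.30 treated, a difference of 0.22 (SE 0.16, adjusted p = 0.23). IDI1 had 10.32 and 10.54 against 10.46 and 10.14, with overlapping groups and a difference of -0.13 (SE 0.19, adjusted p = 0.58). FDPS differed by -0.28 (adjusted p = 0.096), FDFT1 by 0.17 (adjusted p = 0.3) and LSS by 0.11 (adjusted p = 0.57). The summed level of the 8 mRNAs was 1005 and 1125 RPM untreated and 790 and 873 RPM treated.

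These small differences depended on how libraries were scaled. Under the authors' scaling the median gene changed by 0.05 in the negative and by 0.17 in the positive fraction. With median-of-ratios scaling the medians were -0.21 and -0.18, and with quantile normalization -0.07 and -0.08. Relative to the median gene, the members' median in CCNB1-negative cells was -1.33 under the first 2 scalings and -1.02 with quantile normalization. In CCNB1-positive cells it was -0.37, -0.37 and 0.07. Median-of-ratios scaling called 5 members lower in CCNB1-positive cells, adding IDI1 at -0.47 (adjusted p = 0.045) and FDPS at -0.62 (adjusted p = 0.0027). Quantile normalization instead called HMGCS1 higher at 0.41 (adjusted p = 0.032) and FDFT1 at 0.42 (adjusted p = 0.018). Of the 14219 genes tested, median-of-ratios scaling called 5663 lower in that fraction and quantile normalization 3986 higher. SQLE, CYP51A1 and DHCR7 were called lower under all 3 scalings. Among all genes called in CCNB1-positive cells the share that was higher was 58.1%, 40.9% with median-of-ratios scaling and 47.1% with quantile normalization.

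**Figure D2:**
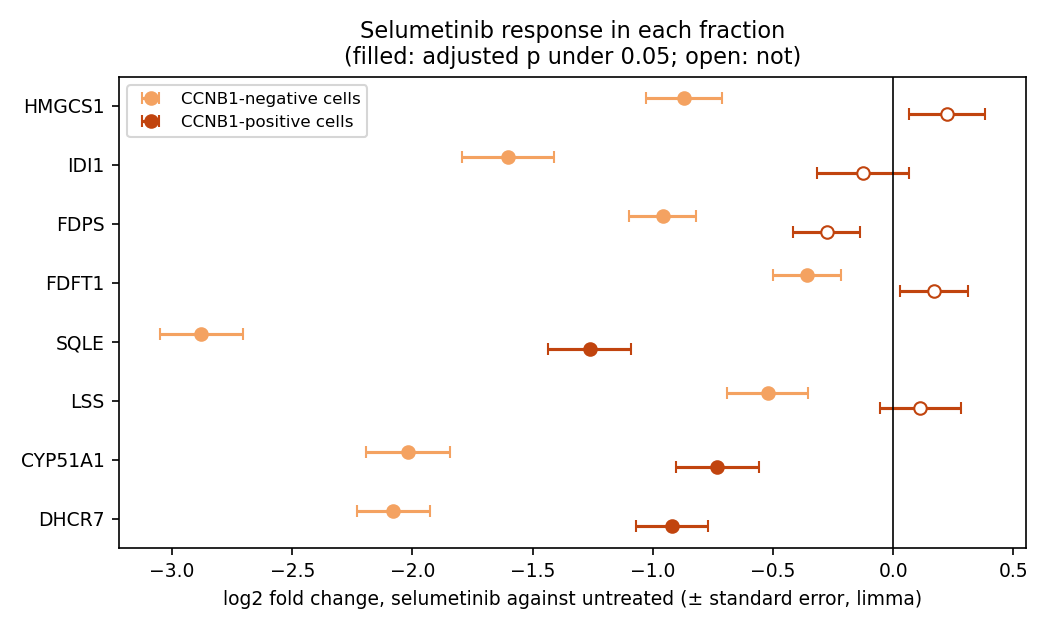
Log2 fold change of selumetinib-treated against untreated cells (horizontal axis, bars are 1 standard error from limma) for each member in CCNB1-negative and CCNB1-positive cells. Filled symbols have an adjusted p under 0.05; all 8 are filled in CCNB1-negative cells, and SQLE, CYP51A1 and DHCR7 in CCNB1-positive cells.

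Seen across the sort, the 8 mRNAs were all higher in CCNB1-positive than in CCNB1-negative cells once the drug was present. The background in this comparison was 13.8% of genes higher and 7.87% lower. SQLE differed most, by 1.53 (SE 0.17, adjusted p = 2.1e-05), then DHCR7 by 1.00 (SE 0.15, adjusted p = 0.00038), CYP51A1 by 0.95 (SE 0.17, adjusted p = 0.0017) and IDI1 by 0.92 (SE 0.19, adjusted p = 0.0042). FDPS, FDFT1, HMGCS1 and LSS differed by 0.62, 0.57, 0.54 and 0.50, with adjusted p-values of 0.0071, 0.013, 0.026 and 0.049. Both treated CCNB1-positive libraries lay above both treated CCNB1-negative ones for each of the 8. The share of all genes that separated in this way was not counted, so this adds nothing to the tests. The members' median was 0.77 against 0.02 for all genes. With quantile normalization LSS did not pass (0.42, adjusted p = 0.072). Counting stricter thresholds, LSS lost its call in 12 of 19 alternatives and HMGCS1 in 6 of 19. Without the filter on low values the adjusted p-values from limma were 0.095 for LSS and 0.061 for HMGCS1. In a fit of the treated libraries alone that of LSS was 0.079. The count rested on single libraries: it was 3 without selumetinib-treated CCNB1-positive replicate 1 and 4 without selumetinib-treated CCNB1-negative replicate 2. SQLE, CYP51A1 and DHCR7 kept their calls in both of these fits. Of all genes called, 63.6% were higher in CCNB1-positive cells, and 46.5% with quantile normalization.

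Without the drug, whether members differed between the fractions depended on the fit. In limma without a block 0 of 8 passed, and 0 by limma-voom. At an adjusted p under 0.05, 1.51% of all genes were lower and 1.36% higher in CCNB1-positive cells. Of the members 2, HMGCS1 and IDI1, had an unadjusted p under 0.05, a threshold at which all genes were not counted. The values of both genes were lower in CCNB1-positive cells by 0.55 (adjusted p = 0.092 for HMGCS1 and 0.18 for IDI1). With a block for each same-numbered pair of fractions 3 members were called lower in CCNB1-positive cells, HMGCS1 (adjusted p = 0.001), IDI1 (0.0016) and CYP51A1 (0.045). That fit called many more genes, with 1248 of all 14219 lower there. The labels do not say that a shared number marks a shared culture. SQLE, FDPS and FDFT1 differed by -0.09, -0.06 and 0.04, LSS by -0.14, DHCR7 by -0.16 and CYP51A1 by -0.33. Untreated and treated comparisons between fractions thus had medians of opposite sign for the members, -0.15 and 0.77. The share of higher genes among those called was 47.5%, 61.1% with median-of-ratios scaling and 65.7% with quantile normalization.

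Genes of G2 and mitosis differed between the fractions in both treatments. All 10 were higher in CCNB1-positive cells with and without the drug, by medians of 4.58 and 1.77. Of all genes 13.8% and 1.36% were higher in these 2 comparisons. Their summed level was 1100 and 1325 RPM in untreated CCNB1-negative, 4528 and 4882 in untreated CCNB1-positive, 128 and 170 in treated CCNB1-negative and 3374 and 3506 in treated CCNB1-positive libraries. The members' medians in these comparisons were 0.77 with and -0.15 without the drug, next to 0.02 and -0.06 for all genes. With median-of-ratios scaling the members' untreated median was -0.03. The part of the fractions' cell cycle make-up in the members' values was not tested.

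The difference between the responses was itself tested, as the interaction of drug and fraction. It passed for 5 members, all with the smaller fall or no fall in CCNB1-positive cells, where 4.99% of all genes passed in that direction. The interaction was 1.61 for SQLE (SE 0.24, adjusted p = 0.00068), 1.48 for IDI1 (SE 0.27, adjusted p = 0.0038), 1.29 for CYP51A1 (SE 0.25, adjusted p = 0.0051), 1.16 for DHCR7 (SE 0.21, adjusted p = 0.004) and 1.09 for HMGCS1 (SE 0.22, adjusted p = 0.0086). FDPS at 0.68, LSS at 0.63 and FDFT1 at 0.53 had unadjusted p under 0.05 but adjusted p-values of 0.065, 0.15 and 0.15. The members' median interaction was 1.13 against 0.11 for all genes, and 94.8% of genes lay below it. Since this is the same set of 8 libraries as above, it is not separate evidence from the responses of each fraction. HMGCS1 lost its call without untreated CCNB1-negative replicate 2 (adjusted p = 0.054) and without untreated CCNB1-positive replicate 1 (adjusted p = 0.052). Among genes called, 93.5% had a positive interaction, and 69.2% with quantile normalization.

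The replicates of a group carried the members up or down together. In both the untreated and the treated CCNB1-positive pairs, 8 of 8 members were higher in the same library, replicate 2 for untreated and replicate 1 for treated cells. The CCNB1-negative pairs had 6 of 8 in one library. The members are therefore not 8 separate measurements of a group. Over the 8 libraries the Pearson correlation of 28 pairs of members ranged from 0.59 to 0.99 with a median of 0.79, a description that the group differences dominate.

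Levels per exon length reordered with the drug. As RPKM, the reads scaled to library size and to the length of the GENCODE exons, SQLE was the most abundant member in untreated cells, with 75.8 and 93.3 in the CCNB1-negative and 71.8 and 86.5 in the CCNB1-positive libraries. FDPS followed at 58.2 and 64.0, and 56.9 and 59.9. FDFT1, DHCR7, HMGCS1 and IDI1 came next in untreated CCNB1-negative cells, where each overlapped its neighbour in the order apart from IDI1 against CYP51A1. LSS was the lowest at 7.44 and 6.87, and the span from first to last was 11.8-fold.

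With selumetinib FDPS came first in both fractions. CYP51A1 had the lowest mean in both, but in CCNB1-positive cells its 7.78 and 6.75 overlapped the 8.24 and 6.88 of LSS. GENCODE draws CYP51A1 from 92084987 to 92134803, and the deposited row starts only at 92112153. The exon length used for CYP51A1 may thus hold exons that were not counted, which would lower its RPKM in every group. In treated CCNB1-negative cells FDPS had 33.8 and 35.4 and SQLE 13.5 and 11.8, level with HMGCS1 at 12.6 and 13.0, whose replicates overlapped those of SQLE. FDFT1, at 19.8 and 19.6, was second. CYP51A1 was at 4.23 and 3.49, and the span was 8.96-fold. In treated CCNB1-positive cells SQLE was back in second place at 38.6 and 32.3, behind FDPS at 51.9 and 51.7.

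**Figure D3:**
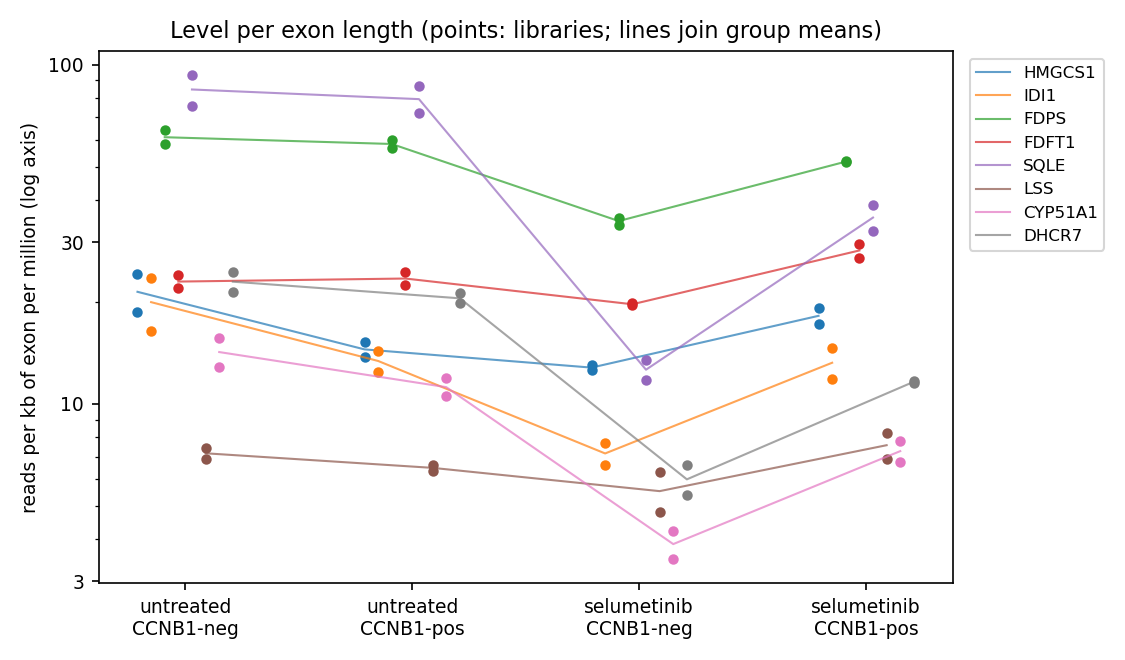
Reads scaled to exon length and to the reads on genes (RPKM, log axis) for each member in the 4 groups; points are libraries and lines join group means. SQLE leads in untreated cells, falls to the level of HMGCS1 in selumetinib-treated CCNB1-negative cells and is second to FDPS in treated CCNB1-positive cells.

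Further sterol enzymes were read from a list of 11, all of which were tested. Of these, 8 fell and 1 rose in CCNB1-negative cells, where 35.8% of all genes fell and 38.2% rose. In CCNB1-positive cells 5 fell and 2 rose, where the shares were 27.3% and 38.0%. LBR, a sterol reductase of the nuclear envelope, fell by 1.92 in the negative and 0.94 in the positive fraction on the log2 scale. ACAT2, which makes the first intermediate acetoacetyl-CoA, fell by 2.03 and 0.82 on the log2 scale, and the C4-demethylation gene NSDHL by 1.81 and 0.77. EBP, the sterol isomerase, changed by -1.76 and -0.43, the latter not called with quantile normalization (-0.28, adjusted p = 0.08). MSMO1, the methyl sterol oxidase, changed by -1.48 (adjusted p = 1.1e-05) in CCNB1-negative cells and measured -0.33 (adjusted p = 0.15) in CCNB1-positive cells. Of the 2 kinases of the mevalonate arm PMVK fell in both fractions and MVK in 1, with MVK at -0.94 (adjusted p = 0.0005) and 0.13 (adjusted p = 0.56) and PMVK at -1.0 (adjusted p = 1.9e-05) and -0.59 (adjusted p = 0.0022).

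TM7SF2 went the other way. This sterol C14 reductase, whose reaction LBR also catalyses, rose by 1.90 in the negative fraction (adjusted p = 3.2e-07) and 1.78 in the positive one (adjusted p = 1.7e-06). MVD, the decarboxylase of the mevalonate arm, measured -0.27 (adjusted p = 0.096) and rose by 0.62 (adjusted p = 0.0018), a rise that was 0.28 (adjusted p = 0.12) with median-of-ratios scaling. SC5D, the desaturase before DHCR7, fell by 0.61 on the log2 scale (adjusted p = 0.018, and 0.21 without untreated CCNB1-negative replicate 2 or 0.14 without treated CCNB1-negative replicate 2) and measured 0.31 (adjusted p = 0.2), and the ketoreductase gene HSD17B7 measured -0.04 (adjusted p = 0.9) and 0.30 (adjusted p = 0.33). The list had a median of -1.0 and -0.33 in the 2 responses, next to -1.28 and -0.20 for the 8 members. Between fractions of treated cells 8 of these 11 stood higher in CCNB1-positive cells, and 6 had a positive interaction. The shares of all genes were 13.8% and 4.99%.

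**Figure D4:**
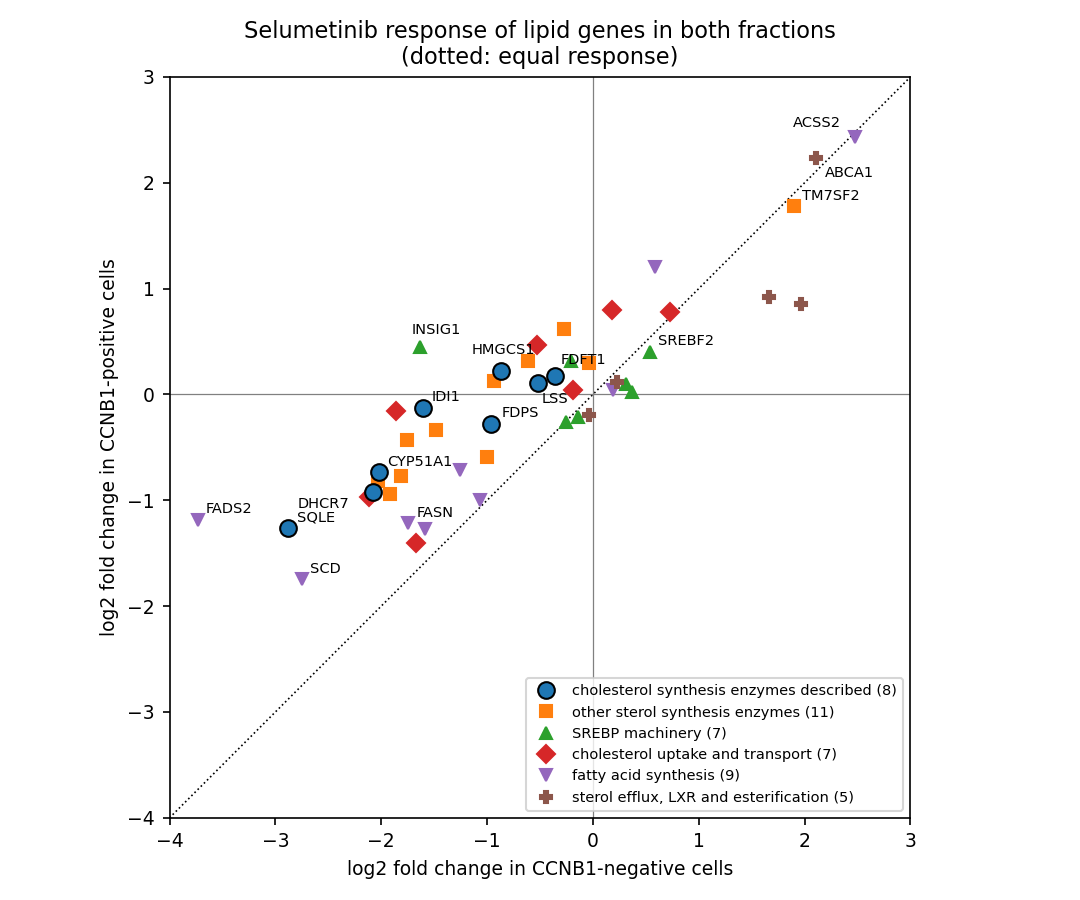
Log2 fold change with selumetinib in CCNB1-negative (horizontal) and CCNB1-positive (vertical) cells for the tested genes of 6 lists, with the number of genes in brackets; the dotted line marks equal response. The 8 cholesterol synthesis enzymes lie above the line, most of the other sterol enzymes lie with them, and TM7SF2, ABCA1 and ACSS2 lie at the upper right. Both axes share the untreated and treated libraries of 1 experiment, and the genes are not independent.

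Of 7 genes of the SREBP machinery, which controls the pathway, 1 fell and 2 rose in CCNB1-negative cells, where 35.8% of all genes fell and 38.2% rose. In CCNB1-positive cells 0 fell and 2 rose, where the shares were 27.3% and 38.0%. INSIG1, itself a sterol-responsive gene whose product holds SCAP in the endoplasmic reticulum, had 9.98 and 10.54 untreated and 8.72 and 8.53 treated in CCNB1-negative cells, a change of -1.63 (SE 0.19, adjusted p = 3.1e-06). In CCNB1-positive cells it went from 9.24 and 9.36 to 9.86 and 9.64, a rise of 0.45 (adjusted p = 0.048). Its interaction of 2.09 (SE 0.27, adjusted p = 0.00016) was larger than that of any of the 8 members. Part of this value lay in the untreated libraries, where the INSIG1 mean was 10.26 without cyclin B1 and 9.30 with it. With the drug the INSIG1 means were 8.63 and 9.75, closer together than the 10.20 and 11.73 of SQLE. SREBF2, which encodes SREBP2, rose by 0.54 (adjusted p = 0.0047) and 0.40 (adjusted p = 0.028), so its mRNA rose in CCNB1-negative cells where the 8 enzymes fell. SREBF1 measured -0.25 (adjusted p = 0.21) and -0.26 (adjusted p = 0.2). SCAP rose by 0.37 (adjusted p = 0.034) in CCNB1-negative cells and measured 0.03 (adjusted p = 0.88) in the others, and the protease gene MBTPS2 measured 0.32 (adjusted p = 0.12) and 0.10 (adjusted p = 0.65). These rises were lost with median-of-ratios scaling, under which SREBF2 measured 0.28 (adjusted p = 0.12) and 0.06 (adjusted p = 0.75), SCAP 0.12 (adjusted p = 0.5) and INSIG1 in CCNB1-positive cells 0.11 (adjusted p = 0.63), and SREBF1 was called lower at -0.51 (adjusted p = 0.013) and -0.61 (adjusted p = 0.0046). In CCNB1-positive cells SREBF2 and INSIG1 also did not pass when any 1 of the 4 libraries of that fraction was left out (adjusted p between 0.055 and 0.19 and between 0.06 and 0.24). With median-of-ratios scaling the list had 4 genes lower in the negative and 2 in the positive fraction. Of all 14219 genes, 6103 and 5663 were lower under that scaling.

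Of 7 tested genes of cholesterol uptake and transport, 4 fell and 1 rose in CCNB1-negative cells, where 35.8% of all genes fell and 38.2% rose. In CCNB1-positive cells 2 fell and 3 rose, near the 27.3% and 38.0% of all genes. The 3 rises became 1 with quantile normalization (3 lower) and 1 with median-of-ratios scaling (2 lower). Over all 14219 genes these scalings called 3986 and 3923 higher and 4482 and 5663 lower. TMEM97 fell by 2.11 and 0.97 on the log2 scale and SCARB1, the receptor for high-density lipoprotein, by 1.67 and 1.41. MYLIP, a ubiquitin ligase and an LXR target, rose by 0.73 (adjusted p = 0.0058) and 0.78 (adjusted p = 0.0047), calls that median-of-ratios scaling did not keep (0.47 and 0.44, adjusted p = 0.051 and 0.076). NPC2, which carries cholesterol out of lysosomes, measured 0.18 (adjusted p = 0.34) and rose by 0.80 (adjusted p = 0.00075).

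Of 7 listed genes of sterol efflux, LXR and esterification, 5 were tested, and 3 rose in the negative and 2 in the positive fraction, where 38.2% and 38.0% of all genes rose. In CCNB1-positive cells quantile normalization left 1 higher, and median-of-ratios scaling 1 higher and 1 lower. Of all 14219 genes these 2 fits called 3986 and 3923 higher and 4482 and 5663 lower. ABCA1, the exporter of cholesterol and a classical LXR target, rose by 2.11 (SE 0.28, adjusted p = 1e-05) and 2.23 (adjusted p = 1.3e-05). ABCG1 rose by 1.96 (adjusted p = 0.00067) and measured 0.85 (adjusted p = 0.084), which was -0.35 (adjusted p = 0.45) with quantile normalization. The LXR gene NR1H2 measured -0.04 (adjusted p = 0.84) and -0.19 (adjusted p = 0.31). Between fractions of treated cells 2 genes of this list, ABCA1 at -1.16 (adjusted p = 0.0097) and ABCG1 at -1.39 (adjusted p = 0.03), were lower in CCNB1-positive cells. Of all genes 7.87% were lower there. ABCA1 was lower there without the drug too, at -1.28 (adjusted p = 0.02), a call not kept with quantile normalization, ABCG1 measured -0.27 (adjusted p = 0.87), and neither passed the interaction (0.12, adjusted p = 0.9, and -1.11, adjusted p = 0.3).

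Of 9 tested genes of fatty acid synthesis, which SREBP1 drives, 6 fell and 2 rose in each fraction. Among all genes 35.8% fell and 38.2% rose in CCNB1-negative cells, and 27.3% and 38.0% in CCNB1-positive cells. FADS2, a desaturase, fell by 3.73 and 1.18 on the log2 scale, SCD, the stearoyl-CoA desaturase, by 2.75 and 1.74, and FASN, the fatty acid synthase, by 1.75 and 1.21. FADS2 and SCD had interactions of 2.55 and 1.00, while that of FASN was 0.53 (adjusted p = 0.24). The FADS2 mean was already lower with cyclin B1 than without it in untreated libraries (11.60 against 12.35), and higher in treated ones (10.42 against 8.62). ACSS2, which makes acetyl-CoA from acetate, rose by 2.47 (adjusted p = 9.2e-08) and 2.43 (adjusted p = 4.3e-07), and LPIN1, a phosphatidate phosphatase, by 0.58 (adjusted p = 0.026) and 1.20 (adjusted p = 0.00029), neither of which passed with quantile normalization (0.38 and 0.46). Here 2 of 9 passed the interaction, next to 5 of the 8 cholesterol enzymes and 4.99% of all genes in the same direction.

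Isoprenoid genes belong to branches that leave the pathway at farnesyl diphosphate. Of 11, 4 fell and 1 rose in CCNB1-negative cells, a share of falls near the 35.8% of all genes. In CCNB1-positive cells 5 fell and 1 rose, where 27.3% of all genes fell and 38.0% rose. In limma 0 of 11 had a positive interaction, with 2 at an unadjusted p under 0.05 and 0 by limma-voom. With median-of-ratios scaling 7 of the 11 were lower in each fraction, where 6103 of all 14219 genes were lower in the negative and 5663 in the positive one. RABGGTB, a subunit of the Rab prenylation enzyme, fell by 1.5 and 1.29 on the log2 scale and COQ2, a prenyltransferase of coenzyme Q synthesis, by 1.73 and 0.87. PDSS2, of the same synthesis, rose by 1.99 (adjusted p = 1.5e-07) and 1.19 (adjusted p = 3.1e-05). The prenyltransferase subunit PGGT1B measured -0.01 (adjusted p = 0.97) and 0.05 (adjusted p = 0.82). Of 5 genes for the regulated destruction of sterol enzymes, 4 fell in the negative and 3 in the positive fraction, where 35.8% and 27.3% of all genes fell. VCP, the segregase, measured -1.63 and -1.20 and the ligase RNF139 -0.81 and -0.71.

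Genes with the pattern most like that of the members were found by the Pearson correlation over the 8 libraries with the mean of the members' standardized values. The 5 closest, among 14211 genes other than the members, were AL713999.1 (r = 0.989), CENPU (0.988), RPA3 (0.987), NEMP2 (0.986) and P2RY1 (0.984). CENPU, a centromere protein, measured -3.48 with selumetinib in the negative and -0.52 in the positive fraction. RPA3, a subunit of the single-stranded DNA-binding protein of replication, measured -2.56 and -0.56. AL713999.1, the closest, measured -0.49 and -0.08, NEMP2 -2.07 and -0.20, and P2RY1 -2.21 and -0.32. Among the pathway lists EBP and MSMO1 came nearest (both r = 0.971, with 26 genes closer than EBP). The members' own correlations with their mean ran from 0.7947 for FDFT1 to 0.98 for IDI1, but that mean contains each of them. RABGGTB, which is not a member, reached 0.8035 with 3409 of the 14211 genes closer, and FDFT1 lay below it. These values are therefore no measure of how alike the members are.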

How the data were processed

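Poly(A) mRNA-seq of 8 HT29 libraries was analysed, 2 in each of 4 groups (untreated or 1 μM selumetinib for 24 h, CCNB1-negative or CCNB1-positive). The authors used Trim Galore 0.5.0 for trimming, HISAT2 2.1.0 for mapping to GRCh38 and SeqMonk for gene quantification. What they deposited are log2 values: read counts per gene, multiplied by a constant that brings each library to the total of the deepest. A gene with 0 reads was entered as if it had 0.9. Annotation release and strand handling are not given in the sources used here. GENCODE release 44, the source of exon lengths, held 99.3% of the identifiers, and 99.9% of those overlapped. The table has 8 value columns, and 0 were left unmapped. The authors' own test was DESeq2 within SeqMonk, which was not run here.

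Whole reads, within a tolerance of 0.1 read, came back for at least 99.98% of expressed genes per library and gave the depth, 12696860 to 23916160 reads on genes. These reads carry no molecular identifiers. Replicates differed by more than counting noise (chi-square per gene 19.8 to 35.8), so each library was kept.

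A mean of 1 RPM (reads scaled to the library total) or more was required, and the 14219 genes that had it were tested on the deposited log2 values with limma 3.58.1 in R 4.3.3, with 1 coefficient per group, a mean-variance trend and Benjamini-Hochberg adjustment over all of them. Called, fell and rose mean an adjusted p under 0.05. The planned design allowed for counts, linear or log2 values, and its log2 part was used. Comparisons share libraries, so their results are given side by side. The fit was tested on simulated reads. Other steps ran in Python 3.11.15 (numpy 2.4.6, pandas 2.3.3), and matplotlib 3.10.9 drew the figures.

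The members and all gene lists were chosen with earlier results of these data known. Named genes are the 8 members, SREBF1, SREBF2, SCAP, INSIG1, FASN, SCD, DUSP6 and CCNB1, from each pathway list the 2 strongest risers and 2 strongest fallers (mean of both responses), any other sterol enzyme, and the 5 closest patterns. COL1A1, EGR1, KRT8, KRT18, EPCAM, CEACAM5, CDX1, CDX2, CDH1, VIL1 and the efflux values between fractions were named after their values were seen. Some genes of the planned lists are not reported here and are in no count of a list. Alternatives were no filter, a filter of 10 RPM, quantile normalization, median-of-ratios scaling, log2(RPM + 1), limma-voom on recovered reads, a replicate block, a block for each pair of fractions, only the groups compared, leaving out each library, an adjusted p under 0.01, and a requirement of 2-fold.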

Additional observations from a re-analysis of the deposited data

Results flagged for a closer look

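For the following mRNAs the 2 fractions responded differently to selumetinib by the interaction term of limma (response of CCNB1-positive minus that of CCNB1-negative cells, log2, adjusted p under 0.05). Among the 8 members these were SQLE (1.61), IDI1 (1.48), CYP51A1 (1.29), DHCR7 (1.16) and HMGCS1 (1.09). Among the other sterol enzymes they were EBP (1.33), ACAT2 (1.21), MSMO1 (1.15), MVK (1.07), LBR (0.98) and MVD (0.89). With them went INSIG1 (2.09) of the SREBP machinery, TMEM97 (1.14) of cholesterol transport, FADS2 (2.55) and SCD (1.00) of fatty acid synthesis, and CCNB1 itself (2.99), whose protein defined the fractions. All 16 values were positive, a direction shared by 709 of the 758 genes called in this comparison.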

How the results depend on the processing

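Over the 5 comparisons and all alternatives, 661 of 736 member values kept their direction and their side of the threshold, 47 no longer passed, 14 newly passed and 14 changed sign, all 14 from values that were not called. With 2-fold required, members called fell to 4 (CCNB1-negative response), 1 (CCNB1-positive response) and 2 (treated fractions), and with an adjusted p under 0.01 to 5 for treated fractions. In the CCNB1-positive response, median-of-ratios scaling gave 5 lower (5663 of all 14219 genes) and quantile normalization 2 higher (3986 of 14219). Leaving out 1 library gave 6 to 8 members lower in the CCNB1-negative response, 3 in each fit of the CCNB1-positive one, 3 to 8 higher in treated fractions and 4 to 7 with an interaction.

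The replicate number as a block raised the members with an interaction from 5 to 6 (FDPS 0.68, adjusted p = 0.042) and changed no other member count. In that fit 814 of 14219 genes had a positive interaction. The labels do not say that a number marks a shared culture. Deviations of same-numbered libraries correlated at 0.35 between untreated and 0.43 between treated fractions and from -0.09 to 0.08 across treatments. A block for those pairs of fractions gave 3 members lower in untreated CCNB1-positive cells (HMGCS1, IDI1, CYP51A1) and 8 with an interaction. Of all 14219 genes that fit called 1248 lower between untreated fractions and 2739 with a positive interaction.

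The values that changed sign had not passed the test. With median-of-ratios scaling the CCNB1-positive response was -0.12 for HMGCS1, -0.17 for FDFT1, -0.23 for LSS, -0.32 for SCAP, -0.25 for MBTPS2, -0.29 for PGGT1B, -0.21 for MVK, -0.046 for HSD17B7 and -0.028 for SC5D, the CCNB1-negative response of NPC2 was -0.079, and untreated fractions differed by 0.054 for FDPS and 0.026 for SQLE. With quantile normalization the CCNB1-positive response was 0.049 for FDPS, -0.32 for MBTPS2, -0.35 for ABCG1, -0.033 for PGGT1B, -0.015 for MVK and -0.52 for HSD17B7, the CCNB1-negative response was 0.055 for NR1H2 and 0.054 for PGGT1B, and untreated fractions differed by -0.0052 for FDFT1. Leaving out 1 library, the CCNB1-positive response ran from -0.29 to 0.036 for IDI1, -0.026 to 0.25 for LSS, -0.054 to 0.11 for SCAP, -0.13 to 0.23 for PGGT1B and -0.0016 to 0.26 for MVK. The CCNB1-negative response ran from -0.16 to 0.084 for NR1H2, -0.26 to 0.25 for PGGT1B and -0.31 to 0.22 for HSD17B7, and the untreated fraction difference from -0.14 to 0.017 for FDPS, -0.039 to 0.11 for FDFT1 and -0.25 to 0.071 for SQLE.

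Over all genes, calls between untreated fractions went from 408 to 259 without a filter, 254 with quantile normalization, 1923 with the pair block and 224 to 455 without 1 library. Between treated fractions they went from 3077 to 6671 with the pair block and 1156 to 4279 without 1 library. The interaction went from 758 to 496 without a filter, 3850 with the pair block and 489 to 1806 without 1 library. The causes were not tested. With 2 libraries a group, a called member in the treated fractions could rest on 1 library.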
